A study of Mus musculus with 6 samples.

Results

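Oligo1 and Oligo5 cells make up 4 of the 6 single cells sequenced in the study, 2 of each type, and they are compared here gene by gene and, where enough molecules covered an exon, by the exons that their transcripts used. The cells were assigned by the deposited labels, Oligodendrocyte 1 and Oligodendrocyte 5, and the other two cells, labelled as progenitors in the deposit and named VLMCs (vascular and leptomeningeal cells) in the study, were left out. All 4 cells came from the brain of CD-1 mice, an outbred strain, and no genotype or treatment set them apart. Oligo1 is the study's name for the immature oligodendrocyte, and Oligo5 is its name for the mature myelinating oligodendrocyte. The labels give the developmental stage as embryo for every cell, Oligo5 included, and they name neither the animal nor an age in days. A cell type therefore counts as 1 sample, no test could be made between the types, and each difference below is set against the spread between the 2 cells of a type and against counting error.

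Oligodendrocytes wrap axons of the central nervous system in myelin, a stack of membrane that is rich in cholesterol and galactolipids and is held together by a small set of abundant proteins. The cell first leaves the progenitor state, then builds and adds membrane, and later maintains a finished sheath. Immature cells are known for genes of adhesion to the axon, of membrane growth and of signalling, and mature cells are known for genes of iron transport, secreted carriers and late myelin components.

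The 4 cells held 29632 transcripts, each of which is 1 cDNA molecule counted by its unique molecular identifier (UMI). Of these, 29369 were assigned to a single gene and were used, 11371 of them from Oligo1-1, 6009 from Oligo1-2, 5823 from Oligo5-1 and 6166 from Oligo5-2. A gene with no transcript could still make up 0.0264% of Oligo1-1 and 0.0487% to 0.0515% of the other three cells, taking 3 counts as the limit. Oligo1-1 was therefore the cell in which a low gene was most easily seen. The cells also differed in the length of what was read, with a median of 1105 aligned bp per transcript in Oligo1-1 and 1156 in Oligo5-2, but 649 in Oligo1-2 and 618 in Oligo5-1. Each type thus held 1 cell rich in long transcripts and 1 poor in them.

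Levels are given as the share of a cell's transcripts. Intervals are exact (Clopper-Pearson) 95% intervals that cover counting error only, and folds are ratios of the shares pooled over the 2 cells of a type. Of 5500 genes detected, 492 had 10 or more transcripts over the 4 cells, and these held 55.3% of the transcripts. Both Oligo1 shares lay above both Oligo5 shares for 170 of the 492 genes (34.6%), and both Oligo5 shares lay above both Oligo1 shares for 75 (15.2%), so that 49.8% did not overlap in one or the other direction. These genes are called higher in Oligo1 and higher in Oligo5 below, and the word says no more than this, since the values themselves chose them. With 2 cells per type, many genes that do not differ between the types would also not overlap, so these shares do not count differing genes. The minimum is a total, so a gene could pass it through the deeper Oligo1 type alone, and a gene that passed only through the type in which it was high had to differ. Of the genes higher in Oligo1, 33 had no transcript in either Oligo5 cell, and of those higher in Oligo5, 12 had none in either Oligo1 cell. Where the 95% intervals of the cells were also required to lie apart, 13 genes were higher in Oligo1 (2.64%) and 11 were higher in Oligo5 (2.24%). The median log2 ratio of Oligo1 to Oligo5 over the 492 genes was 0.38 with 0.5 added to each count, and 0.46 with genes at 0 in a type set at their bound.

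**Figure D1:**
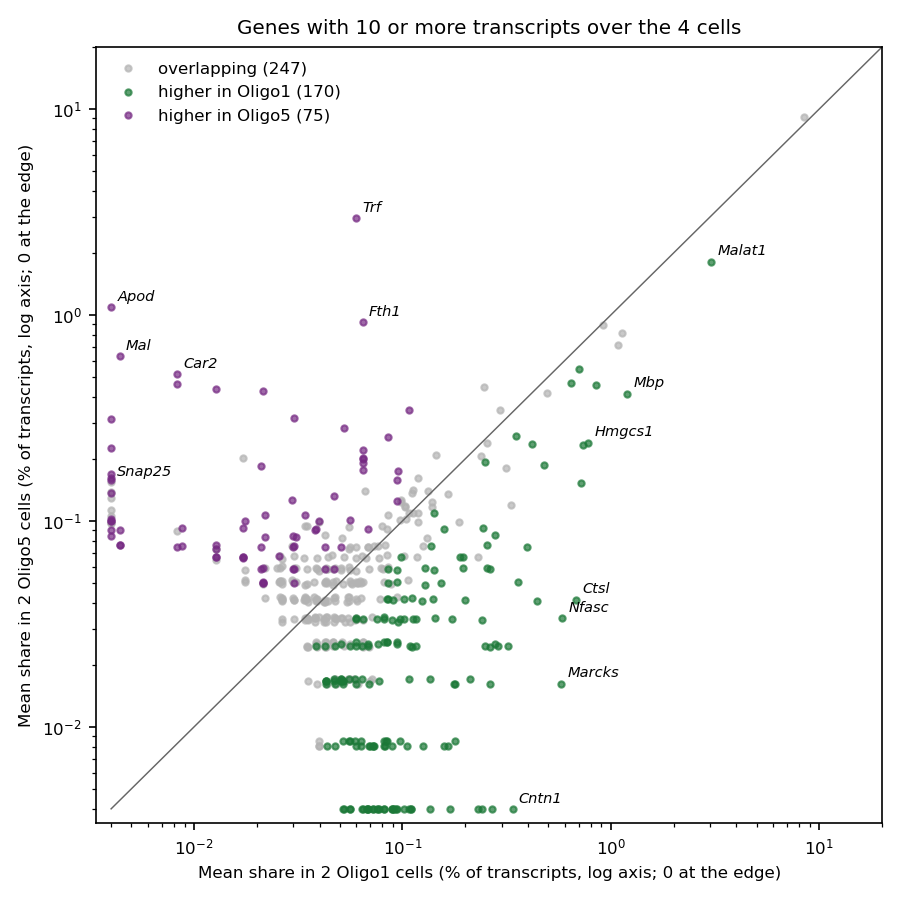
Each point is 1 of the 492 genes with 10 or more transcripts over the 4 cells, at its mean share (% of a cell's transcripts, log axes) in the 2 Oligo1 cells (x) and the 2 Oligo5 cells (y), and means of 0 are drawn at the axis edge. Green points are the 170 genes higher in Oligo1, purple points the 75 higher in Oligo5 and grey points the 247 that overlap, the line marks equal shares, and Trf, Apod and Fth1 stand far above it while Marcks, Ctsl and Nfasc stand far below.

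The labels were first set against marker genes. Apod, a secreted lipid carrier of the lipocalin family (chr16:31296192-31314808, GRCm38), had 60 transcripts in Oligo5-1 and 71 in Oligo5-2 and none in either Oligo1 cell, so it was at least 63.3-fold higher in Oligo5 at a floor of 3 counts over the type. Trf, which encodes transferrin, the iron carrier (chr9:103204001-103230444), had 119 and 239 transcripts in the Oligo5 cells and 8 and 3 in the Oligo1 cells. Among the immature markers, the long noncoding RNA 9630013A20Rik had 27 and 6 transcripts and Itpr2, an intracellular calcium channel, had 6 and 5 in the Oligo1 cells, and both were at 0 in both Oligo5 cells. Bcas1, a marker of early myelinating oligodendrocytes, had 1 transcript in Oligo1-1 and none elsewhere, so it says nothing about the labels at this depth. The other 4 markers went with the labels. The cells and their cDNA came from an earlier sequencing experiment, so this is not an independent check of the labels. Apod, Itpr2 and 9630013A20Rik, at 0 in the low type, also passed the minimum through the high type alone.

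Longer lists of markers were then summed, with members chosen while earlier results of these data were known. The 20 immature oligodendrocyte markers summed to 0.748% of transcripts in Oligo1-1 (95% interval 0.598% to 0.923%) and 1.18% in Oligo1-2 (0.924% to 1.49%), against 0.0859% in Oligo5-1 and 0.0649% in Oligo5-2, a ratio of the mean shares of 12.8. Of the 6 members with 10 or more transcripts all 6 were higher in Oligo1, namely Rras2, 9630013A20Rik, Prom1, Tmem163, Itpr2 and Fyn, and each was at 0 in both Oligo5 cells, so each had passed the minimum through Oligo1 alone. Both the call and a high ratio were fixed by this, so neither is read as a result. Enpp6, a choline phosphodiesterase used as a marker of newly formed oligodendrocytes, ran against its list with 4 and 3 transcripts in the Oligo5 cells and none in the Oligo1 cells. Gpr17, a receptor of committed precursors, had 4 transcripts, all in Oligo1-1.

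The 24 mature oligodendrocyte markers summed to 6.71% of transcripts in Oligo5-1 (6.09% to 7.39%) and 9.57% in Oligo5-2 (8.85% to 10.3%), against 0.879% in Oligo1-1 and 0.466% in Oligo1-2, a ratio of 12.1. Of 16 members with 10 or more transcripts, 12 were higher in Oligo5, 3 overlapped and 1 was higher in Oligo1, against 15.2% higher in Oligo5 and 34.6% higher in Oligo1 over all genes. Their median log2 ratio was -5.34 with 0.5 added to each count and -3.45 at the bounds. The 1 exception, Opalin, a sialylated transmembrane protein of the myelin membrane, had 5 and 6 transcripts in the Oligo1 cells and none in the Oligo5 cells. It thus passed the minimum through Oligo1 alone. Apod, Mal, Car2 and Sepp1, with at most 1 Oligo1 transcript each, passed it through Oligo5 alone. The calls and high ratios of such members were fixed by this, so neither the count of 12 nor the median is read as a result. Mog, a surface protein of the outermost myelin layer, overlapped, with 52 transcripts in Oligo1-1 but 2 in Oligo1-2, and 19 and 35 in the Oligo5 cells.

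Markers of other cell types were low in 3 of the cells. Microglia markers (14 genes) and VLMC markers (10 genes) were at 0 in all 4 cells, and the 14 progenitor markers gave 2 transcripts, of Cspg5 and Ccnd1 in Oligo5-2, with Pdgfra and Cspg4 at 0. The neuron list gave 71 transcripts in Oligo5-2, 1.15% of the cell, and 5, 8 and 1 in Oligo1-1, Oligo1-2 and Oligo5-1. All of those 5, 8 and 1 transcripts were Sv2a, a synaptic vesicle protein that was seen in every cell, so that the other 23 neuron markers were at 0 in 3 cells and gave 66 transcripts in Oligo5-2. These included 19 of Snap25, a synaptic fusion protein, 16 of Snhg11 and 9 of Syt1. Oligo5-2 also had 17 transcripts of Slc1a2, the astrocyte glutamate transporter, while Gfap, Aqp4 and Gja1 were at 0 in all 4 cells and 4 transcripts of Slc1a3 in Oligo5-1 and 3 of Aldoc in Oligo1-1 were the largest counts of astrocyte markers elsewhere. Endothelial markers gave 8 transcripts in Oligo5-1, 3 of them Ly6a, and 1 in Oligo1-2. Since a gene is called higher in Oligo5 only where Oligo5-1 also lies above both Oligo1 cells, Snap25, Snhg11 and Slc1a2 were not among the 75 genes. The part of the neuronal transcripts in any other value of Oligo5-2 was not tested.

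**Figure D2:**
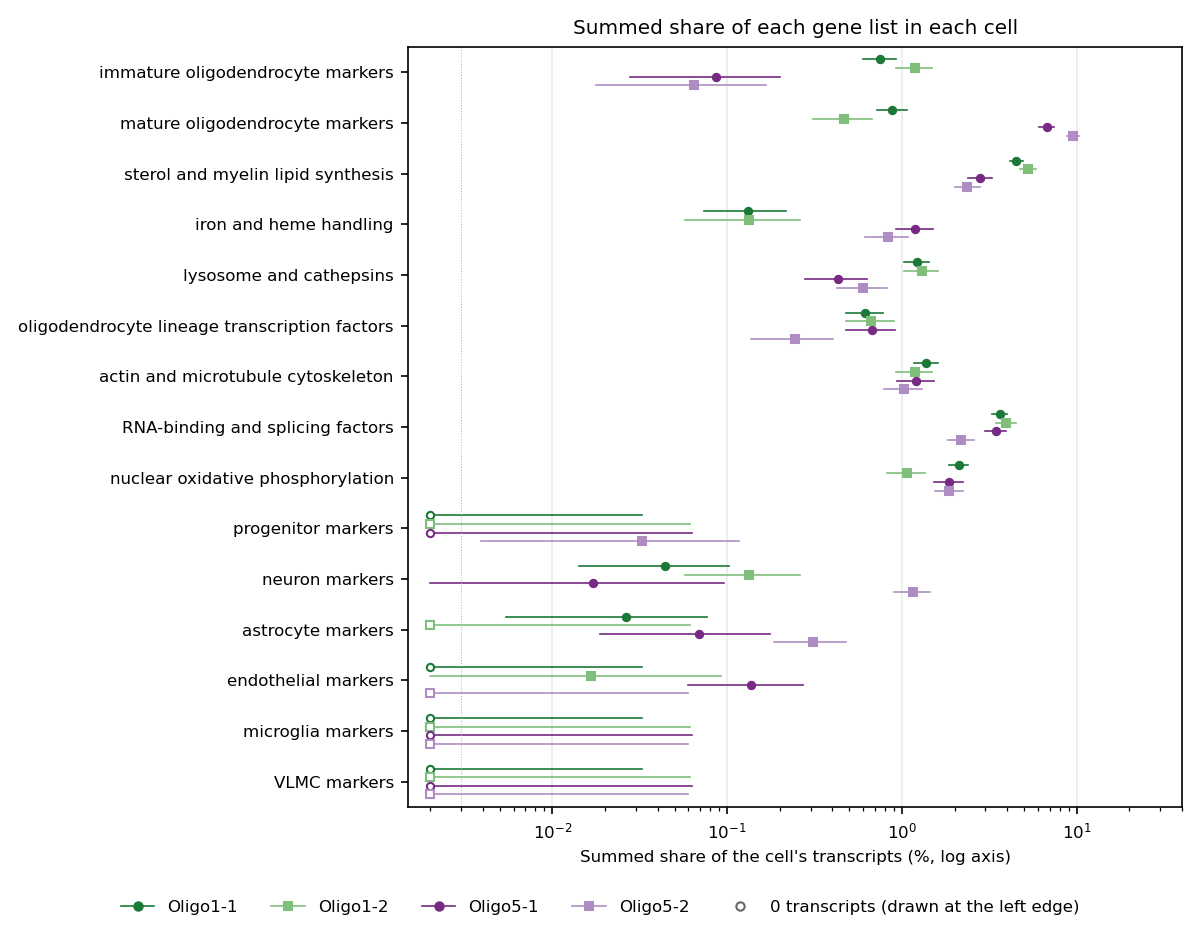
Summed share of the gene lists drawn (% of the cell's transcripts, log axis) in the 4 cells, with exact 95% intervals as lines and open symbols at the left edge for 0 transcripts. The immature list and the sterol and lipid list lie higher in both Oligo1 cells, as does the lysosome list through Ctsl, the mature list lies higher in both Oligo5 cells, as does the iron list through Fth1, and neuron markers stand out in Oligo5-2 alone at 1.15%.

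Of the genes higher in Oligo5, Apod and Trf had the largest ratios of bounds between the types. Trf made up 2.04% of the transcripts of Oligo5-1 and 3.88% of those of Oligo5-2, against 0.0704% and 0.0499% in the Oligo1 cells, and was 47.2-fold higher (26.1 to 95.4). Both Oligo5 cells were high, and the 2 differed from each other by more than their intervals allow. Fth1, the heavy chain of the iron store ferritin, had 61 and 49 transcripts in the Oligo5 cells and 9 and 3 in the Oligo1 cells, and was 13.3-fold higher (7.31 to 26.5). Fth1 has many near-identical pseudogene copies in the genome and only uniquely aligned molecules were kept, so its counts are uncertain in all 4 cells.

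Other members of the mature list were nearly absent from Oligo1. Mal, a membrane raft protein of compact myelin, had 52 and 23 transcripts in the Oligo5 cells and 1 and 0 in the Oligo1 cells, a ratio of 109 with an interval from 18.9 to 4351. Car2, the carbonic anhydrase of the mature cell, had 13 and 50 against 0 and 1, a ratio of 91.3 (15.8 to 3664). Sepp1, the plasma selenium carrier selenoprotein P, had 21 and 35 against 0 and 1, a ratio of 81.2 (14.0 to 3263). In each of these 3 genes the low type rests on 1 transcript, so the ratio is known only within wide limits although the groups lie far apart. S100b, a calcium-binding protein of glia, had 20 and 33 transcripts in the Oligo5 cells and 1 in each Oligo1 cell, a ratio of 38.4 (10.1 to 325).

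Klk6, a secreted serine protease of oligodendrocytes, Pmp22, a tetraspan protein best known from peripheral myelin, and Anln, an actin-binding protein of the septin scaffold, were each at 0 in both Oligo1 cells. Klk6 had 11 and 27 transcripts in the Oligo5 cells (at least 18.4-fold higher). Pmp22 had 16 and 11 (at least 13.0-fold). Anln had 7 and 12 (at least 9.18-fold). Each Oligo5 count was above the floor of 3. Aspa, which splits N-acetylaspartate to supply acetate, followed the same pattern with 5 and 7 (at least 5.80-fold).

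Other genes higher in Oligo5 encode a membrane glycoprotein and proteins that bind or link to actin. Such genes were not particular to Oligo5. Of 8 genes tested on the cytoskeleton list 2 were higher in Oligo1, Marcks among them, and 1 was higher in Oligo5. Gpm6b, a tetraspan membrane glycoprotein, had 31 and 20 transcripts in the Oligo5 cells against 3 and 1 in the Oligo1 cells (18.5-fold, 6.79 to 70.4). Tmsb4x, thymosin beta 4, which binds actin monomers, had 19 in each Oligo5 cell against 5 and 1 (9.18-fold, 3.85 to 26.6). Epb4.1l3, a band 4.1 protein that links membrane proteins to actin, had 12 and 10 against 1 and 2 (10.6-fold, 3.19 to 55.5). The genes named in each direction are the 15 with the largest ratio of the lower 95% bound of the high type to the upper bound of the low type. This ratio was 0.647 for Epb4.1l3, the last one taken, and 0.593 for Gatm, the first one left out, so the intervals of the last few touched. The smallest folds among the 15 genes in this direction were those of Ermn, an actin-binding myelin protein, and Gsn, the actin-severing protein gelsolin. Ermn had 17 transcripts in each Oligo5 cell and 10 and 1 in the Oligo1 cells (4.48-fold, 2.22 to 9.80). Gsn had 24 and 17 against 13 and 6 (3.13-fold, 1.77 to 5.71).

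**Figure D3:**
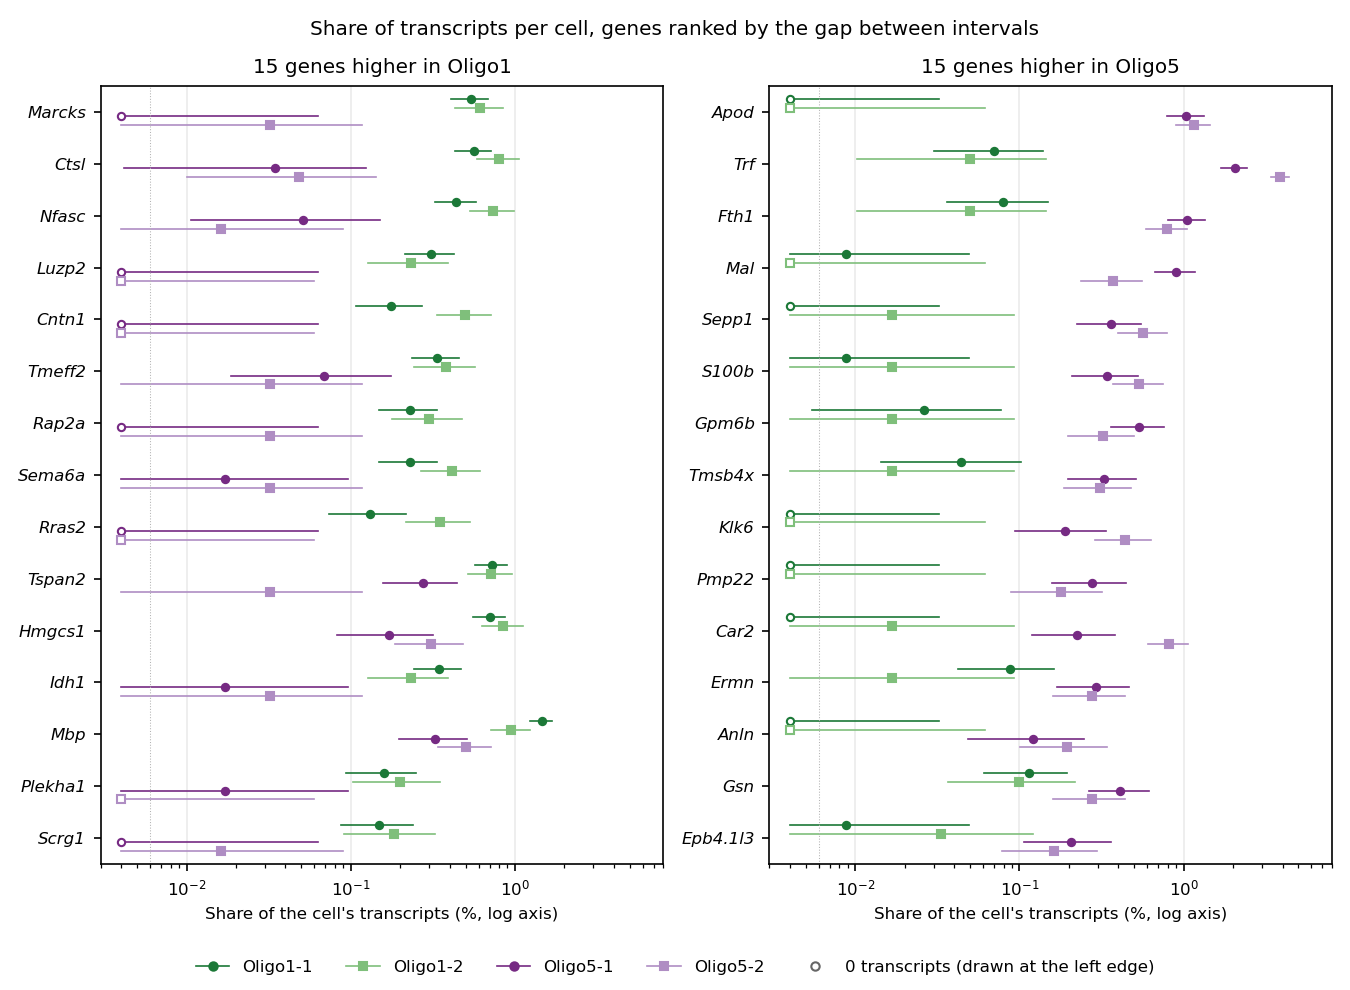
Share of each cell's transcripts (%, log axis) for the 15 genes named in each direction, with exact 95% intervals as lines and open symbols at the left edge for 0 transcripts. In every panel row the 2 cells of one type lie to one side of both cells of the other, and Apod, Klk6, Pmp22 and Anln have no transcript in Oligo1 while Luzp2, Cntn1 and Rras2 have none in Oligo5.

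Of the genes higher in Oligo1, Marcks, Ctsl and Nfasc had the largest ratios of bounds between the types. Marcks, an actin-regulating substrate of protein kinase C at the inner membrane face (chr10:37133375-37138920), had 61 transcripts in Oligo1-1 and 37 in Oligo1-2 against 0 and 2 in the Oligo5 cells, a ratio of 33.8 (9.11 to 283). Nfasc, neurofascin, an adhesion protein of the contact between glia and axon, had 50 and 44 against 3 and 1 (16.2-fold, 6.13 to 60.7). Its glial form lies where the myelin loops meet the axon. Cntn1, contactin 1, an adhesion protein of the same immunoglobulin superfamily, had 20 and 30 transcripts in the Oligo1 cells and none in Oligo5 (at least 11.5-fold). Sema6a, a transmembrane semaphorin, had 26 and 25 against 1 and 2, a ratio of 11.7 (3.79 to 58.7). Both Oligo1 cells were high in each of these, and no Oligo5 cell had more than 3 transcripts of any.

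Small GTPases and a phosphoinositide-binding adapter were also higher in Oligo1. Rap2a had 26 and 18 transcripts in the Oligo1 cells against 0 and 2, a ratio of 15.2 (3.96 to 129). Rras2 had 15 and 21 against none (at least 8.28-fold). Plekha1 had 18 and 12 against 1 and 0, a ratio of 20.7 (3.44 to 844). The low type again rested on 0 to 2 transcripts in these 3 genes.

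Ctsl, the lysosomal protease cathepsin L, had 64 and 48 transcripts in the Oligo1 cells and 2 and 3 in the Oligo5 cells (15.5-fold, 6.43 to 48.5). The lysosome list as a whole, 24 genes, summed to 1.21% and 1.30% of transcripts in the Oligo1 cells against 0.429% and 0.60% in the Oligo5 cells. Ctsl held 112 of the 216 transcripts of that list in Oligo1, and without it the sums overlapped, at 0.651% and 0.499% against 0.395% and 0.551%. Of the 6 members with 10 or more transcripts 3 were higher in Oligo1, against 34.6% over all genes, and beside Ctsl these were Npc2, a lysosomal sterol carrier, with 19 and 9 against 5 and 6, and Ctsd, with 7 and 4 against 1 and 2. Lamp1, Lamp2 and Atp6v1a overlapped. Ctsl and Ctsd passed the minimum through Oligo1 alone, so the count of 3 is not read as a result.

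Tmeff2, a transmembrane protein with an EGF-like domain, had 38 and 23 transcripts in the Oligo1 cells against 4 and 2 (7.01-fold, 3.04 to 19.9). Luzp2, a leucine zipper protein, had 35 and 14 against none (at least 11.3-fold). Idh1, the cytosolic isocitrate dehydrogenase that makes NADPH, had 39 and 14 against 1 and 2, a ratio of 12.2 (3.95 to 61.0). Scrg1, a small secreted protein, had 17 and 11 against 0 and 1, a ratio of 19.3 (3.19 to 790). In the long-molecule run taken alone its log2 ratio was -0.26. With only 1 Oligo5 transcript in all, that sign rests on the depths of the cells and is not read as a reversal. Scrg1 was the last gene taken in this direction, with a ratio of bounds of 0.964, and Malat1, with 0.898, was the first one left out.

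Myelin protein genes went in both directions. Their list summed to 15.3% and 15.8% of the transcripts of the Oligo1 cells and to 16.3% and 10.02% of those of the Oligo5 cells, so that the sums overlapped. Of 29 genes of the list 25 had 10 or more transcripts, of which 13 were higher in Oligo1, 5 were higher in Oligo5 and 7 overlapped, against 34.6% and 15.2% of all genes higher in Oligo1 and Oligo5. Their median log2 ratio was 0.83 against 0.38 over all genes tested. Members such as Nfasc and Sirt2 passed the minimum through Oligo1 alone, which tied their direction to the minimum. Neither the count of 13 nor the median is therefore read as a result.

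Mbp, the basic protein that draws the inner membrane faces together, had 165 and 57 transcripts in the Oligo1 cells and 19 and 31 in the Oligo5 cells, or 1.45% and 0.949% against 0.326% and 0.503% (3.06-fold, 2.24 to 4.25). Mobp, a second basic protein of compact myelin, had 122 and 24 against 15 and 13 (3.60-fold, 2.39 to 5.60), and its 2 Oligo1 shares, 1.07% and 0.399%, lay far apart. Cnp, which keeps cytoplasmic channels in the sheath open, had 103 and 47 against 36 and 18 (1.92-fold, 1.40 to 2.67). All of these were higher in Oligo1 by the rule, and only in Mbp of the 3 did the intervals of the cells also not touch.

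Tspan2, a tetraspanin of myelin, had 82 and 43 transcripts in the Oligo1 cells and 16 and 2 in the Oligo5 cells (4.79-fold, 2.91 to 8.35). Sirt2, a deacetylase carried in myelin, had 20 and 23 against 2 and 1, a ratio of 9.89 (3.16 to 49.8). Oligo5-2 was the lower Oligo5 cell in both genes. Mag, an adhesion protein of the layer facing the axon, had 18 and 21 against 5 and 2 (3.84-fold, 1.70 to 10.2). Cldn11, the tight junction claudin of myelin, had 43 and 35 against 18 and 4 (2.45-fold, 1.51 to 4.12). In Tspan2 and Cldn11 the 95% intervals of the 2 Oligo5 cells did not overlap, with Oligo5-2 the lower in both. The 5 myelin genes higher in Oligo5 were Gpm6b and Ermn, described above, and Cmtm5, Cd9 and Omg. Cmtm5 had 12 and 9 transcripts against 11 and 2, Cd9 had 2 and 6 against 2 and 1, and Omg had 7 and 2 against 1 and 0, so the last 2 rest on few molecules.

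The enzymes of sterol and myelin lipid synthesis were measured next, from a list of 40 genes. They summed to 4.51% (4.14% to 4.91%) of transcripts in Oligo1-1 and 5.28% (4.72% to 5.87%) in Oligo1-2, against 2.80% (2.39% to 3.26%) in Oligo5-1 and 2.37% (2.00% to 2.78%) in Oligo5-2, a ratio of 1.89. Of 17 members with 10 or more transcripts, 9 were higher in Oligo1, 1 was higher in Oligo5 and 7 overlapped, against 34.6% and 15.2% of all genes higher in Oligo1 and Oligo5. Their median log2 ratio was 1.62 against 0.38 over all genes. Members such as Elovl6 and Far1 passed the minimum through Oligo1 alone, which tied their direction to the minimum. Neither the count of 9 nor the median is therefore read as a result.

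In the cholesterol branch Hmgcs1, Cyp51, Msmo1 and Nsdhl were higher in Oligo1, and Sqle and Hsd17b7 overlapped. Hmgcs1, which makes HMG-CoA, had 80 and 51 transcripts in the Oligo1 cells and 10 and 19 in the Oligo5 cells (3.12-fold, 2.07 to 4.83). Cyp51, the lanosterol demethylase, had 38 and 9 against 1 and 3 (8.11-fold, 2.96 to 31.0). Msmo1, the next demethylating oxidase, had 39 and 11 against 3 and 4 (4.93-fold, 2.22 to 12.9). Nsdhl, a sterol dehydrogenase, had 12 and 2 against 0 and 2, so its Oligo1-2 and Oligo5-2 counts were equal.

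Ugt8a, the galactosyltransferase that makes galactosylceramide, had 98, 59, 54 and 53 transcripts, or 0.862%, 0.982%, 0.927% and 0.860% of the cells, a ratio of 1.01, with an interval from 0.787 to 1.31 within which a difference was not detectable at this depth. Scd2, the desaturase of brain fatty acids, had 79, 89, 52 and 33 transcripts and also overlapped, because Oligo5-1 (0.893%) lay above Oligo1-1 (0.695%). The elongases split. Elovl7 (27 and 15 against 7 and 4) and Elovl6 (9 and 5 against none) were higher in Oligo1, and Elovl5 overlapped. Elovl1 was higher in Oligo5 by share only, with 3 and 3 transcripts in the Oligo5 cells and 5 and 1 in the Oligo1 cells. Far1, which makes the fatty alcohols of plasmalogens, had 5 and 9 transcripts in the Oligo1 cells against 1 and 0.

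**Figure D4:**
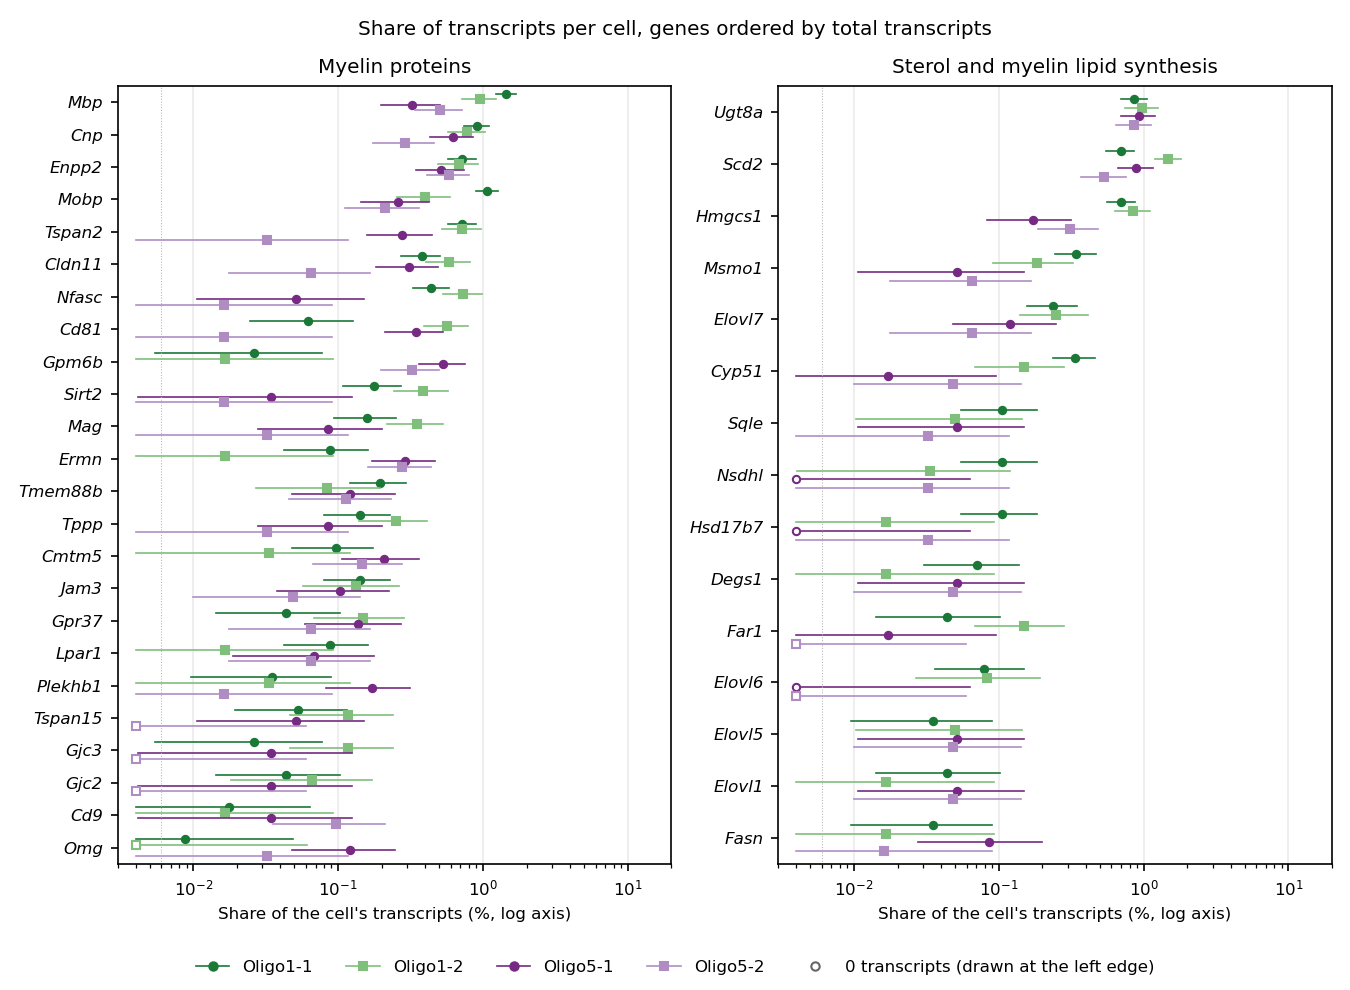
Share of each cell's transcripts (%, log axis) for 24 myelin protein genes (left) and 15 sterol and lipid genes (right) with 10 or more transcripts, ordered by total transcripts, with exact 95% intervals as lines and open symbols at the left edge for 0 transcripts. Ugt8a and Scd2 overlap between the types, Mbp, Nfasc and Hmgcs1 lie higher in both Oligo1 cells, and Gpm6b and Ermn lie higher in both Oligo5 cells.

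Regulators were too low for most comparisons. Of 26 lineage transcription factors 18 were detected and 3 had 10 or more transcripts. Olig1, a basic helix-loop-helix factor of the lineage, had 26 and 17 transcripts in the Oligo1 cells and 8 and 1 in the Oligo5 cells (3.30-fold, 1.58 to 7.69), and Tcf4 and Zeb2 overlapped. Olig2 had 5 and 2 against none, Sox10 had 1 in each of Oligo1-1 and Oligo5-1, and Myrf, the factor that drives myelin genes, had 1 in Oligo1-2 and 2 in Oligo5-1. Differences in these factors were not detectable at this depth.

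The iron list summed to 0.132% and 0.133% in the Oligo1 cells against 1.18% and 0.827% in the Oligo5 cells, but Fth1 was its only member with 10 or more transcripts and held 110 of its 120 transcripts in Oligo5. Without Fth1 the sums overlapped, at 0.0528% and 0.0832% against 0.137% and 0.0324%, and Tfrc, the transferrin receptor, had 1, 2, 3 and 1 transcripts. Trf, the iron carrier described above as higher in Oligo5, was not part of this list. Of 8 cytoskeletal genes Marcks and Tuba1a were higher in Oligo1 and Tmsb4x was higher in Oligo5, with sums from 1.02% to 1.37% in the 4 cells. Of 8 RNA-binding and splicing genes 2 were higher in Oligo1 and 3 in Oligo5, near the 49.8% of all genes that did not overlap. Malat1, a nuclear long noncoding RNA, had 315 and 198 transcripts in the Oligo1 cells against 136 and 80 (1.64-fold, 1.39 to 1.93), and Hnrnpu had 9 and 2 against 1 and 0. Mbnl2, a splicing regulator, had 20 and 6 in the Oligo5 cells against 9 and 3 (3.14-fold, 1.53 to 6.83), and Son (8 and 11 against 12 and 5) and the kinase Clk4 (4 and 4 against 1 and 1) were also higher in Oligo5. Qk, the splicing regulator quaking, overlapped with 17, 11, 11 and 5 transcripts.

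Of 18 nuclear genes of oxidative phosphorylation, 3 were higher in each type (Atp5a1, Ndufa4 and Uqcrc2 in Oligo1 and Atp5c1, Ndufa3 and Ndufb9 in Oligo5). Among 10 proteasome and ubiquitin genes Psma1, Psma7 and Psmc5 were higher in Oligo1, among 5 translation factors Eif3c and Eif4g2 were higher in Oligo1 and Eif3a in Oligo5, and all 4 ribosomal protein genes overlapped. Over all genes tested, 49.8% did not overlap. Of the immediate early and chaperone genes Hsp90ab1, with 32, 13, 12 and 11 transcripts, was higher in Oligo1, and Hsp90b1, Cct2 and Hspa5 overlapped. Fos, Egr1 and Dusp1 had at most 4 transcripts in any cell, and no mitochondrially encoded gene is named among the transcripts.

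Molecules of different cells were sequenced in a pool and were found joined end to end, so the few transcripts of a gene in the type in which it was low were checked for UMIs carried over from the other type. Of the 11 Trf transcripts of the Oligo1 cells, 1 had a UMI that was also seen with Trf in Oligo5, where 348 of the 4096 possible UMIs were seen. None of the 12 Fth1 transcripts in Oligo1, the 2 Marcks transcripts in Oligo5 or the 5 Ctsl transcripts in Oligo5 had a UMI of the other type.

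Exon use was compared where transcripts read across the alternative part. In the deposited exon structures 13 exons of 10 genes had enough transcripts, and none lay apart between the types by the rule, which asks that the 2 cells of a type not overlap with the 2 of the other and that the types differ by 20 percentage points or more (0% of 13). Exon junctions from the aligned blocks gave 73 choices of splice partner in 18 genes, of which 12 did not overlap (16.4%) and 8 also differed by 20 points or more (11%). These 8 are the several junctions of 1 exon in Enpp2 and of 1 exon in Gas5. The Gas5 exon rests on 8 transcripts of Oligo1 and 5 of Oligo5 and is not described further.

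Enpp2, autotaxin, a secreted lysophospholipase that also makes the lipid signal lysophosphatidic acid, had 82, 41, 30 and 36 transcripts in the 4 cells. Its alternative exon lies at chr15:54851348-54851422 (GRCm38, minus strand), is 75 bp long and wholly coding, keeps the reading frame, and is present in 1 transcript of the GENCODE annotation. The joins that tell the forms apart are shown 5′ to 3′ as 15 bases from each side, from GENCODE transcripts, with the alternative exon in capitals.
Enpp2, exon skipped: aaggatctacagaagagagacatctcctgt
Enpp2, exon included, upstream join: aaggatctacagaagCTGAAACCGGAAAAT
Enpp2, exon included, downstream join: TTGAGCCTAGAAAAGagagacatctcctgt

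The exon was included in 15 of 51 Enpp2 transcripts in Oligo1-1 (29.4%) and in 3 of 12 in Oligo1-2 (25%), but in 6 of 11 in Oligo5-1 (54.5%) and 13 of 25 in Oligo5-2 (52.0%). By type this was 28.6% (17.9% to 41.3%, n = 63 transcripts) in Oligo1 and 52.8% (35.5% to 69.6%, n = 36 transcripts) in Oligo5, so the intervals of the types overlapped while the shares of the cells did not. Without each cell in turn the types still lay apart, and in the long-molecule run alone the shares were 30.9% and 56.7%. With UMIs read at least 2 times, which left 33 and 13 transcripts, the shares were 30.3% and 30.8% and the types no longer lay apart.

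Mbp has 2 alternative exons, of 78 and 123 bp. The 78-bp exon, which marks the larger early forms of the protein, was included in 20 of 55, 1 of 5, 0 of 3 and 4 of 18 transcripts of Oligo1-1, Oligo1-2, Oligo5-1 and Oligo5-2, or 35.0% (23.1% to 48.4%) of Oligo1 and 19.0% (5.45% to 41.9%) of Oligo5 transcripts. The 123-bp exon was included in 18 of 59, 1 of 6, 1 of 3 and 4 of 19, or 29.2% and 22.7%. Both overlapped between the types, and Oligo1-2 and Oligo5-1 gave few transcripts. In the long-molecule run alone the 78-bp exon lay apart by the rule, at 31.9% of 47 Oligo1 transcripts and 11.8% of 17 Oligo5 transcripts. Its shares by cell were 31.1% and 50% for Oligo1 against 0% and 13.3% for Oligo5. The 50% and 0% belong to Oligo1-2 and Oligo5-1, with at most the 5 and 3 transcripts given above. That call is therefore not read as a difference. Skipping of the exon, counted from its upstream side, was not called, at 68.1% and 82.4%. The 123-bp exon still overlapped in that run. In Mobp, Mog and Cnp no exon or junction was called, and Mag, Nfasc, Bin1, Fyn and Tcf7l2 had no alternative part with enough transcripts in both types. The 3′ ends of transcripts, grouped into sites for 40 genes, gave 9 of 128 sites (7.03%) that lay apart between the types by the same rule.

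**Figure D5:**
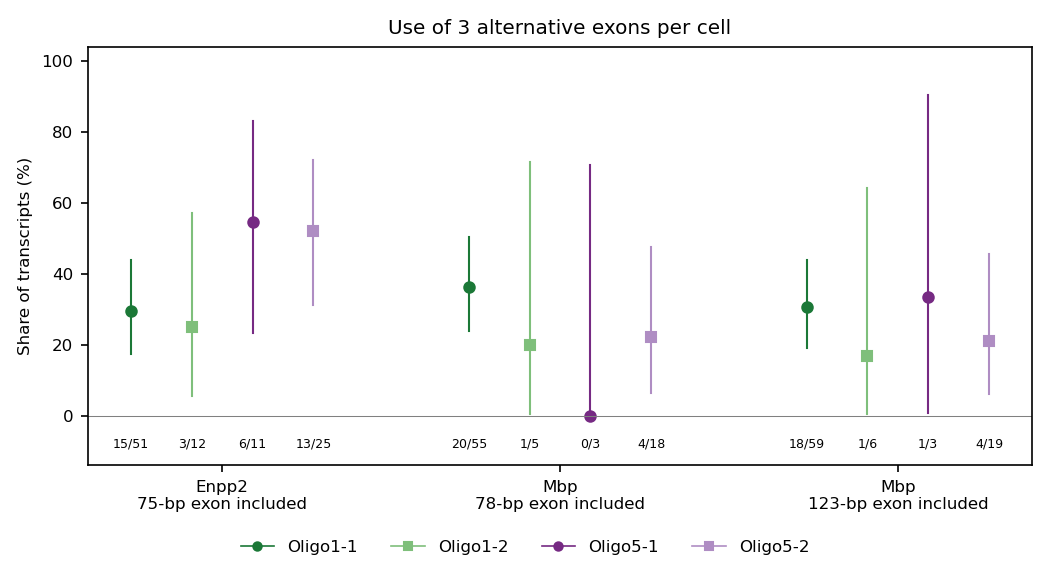
Share of transcripts (%) that included the 75-bp exon of Enpp2 or the 78-bp or 123-bp exon of Mbp in each of the 4 cells, with exact 95% intervals and the counts below each point. Both Oligo5 cells lie above both Oligo1 cells for Enpp2, and the Mbp exons overlap.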

How the data were processed

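The data were PacBio reads of STRT/C1 cDNA from single mouse brain cells, in 1 deposited table of transcripts. Per the file headers it gives for each transcript a count of the reads that shared its UMI, without normalization, and the exon numbers and the start and end positions of the aligned blocks. The authors discarded short molecules by gel, pooled a short run and a run enriched for long molecules, split concatemers, aligned reads to mm10 with GMAP (the submitters' processing notes name GSNAP), dropped molecules with several alignments, closed gaps shorter than 40 bp and annotated the exons with RefSeq. UMIs have 6 bases.

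Here transcripts of Oligo1 and Oligo5 were counted per gene, leaving out 263 that spanned several gene names. Each cell had 5895 to 11483 transcripts, of which 47.2% to 76.7% rested on 1 read. The genes named are the 15 in each direction with the largest ratio of bounds, the 5 markers and members of the gene lists. The members and lists were chosen with earlier results of these data known. Exons and junctions needed 5 transcripts per type, 1 in each cell and use between 5% and 95%, with sites within 5 bp joined. For positions, 5297 names were found in GENCODE M21 (GRCm38) as symbols and 172 through RefSeq synonyms. Python 3.11.15, numpy 2.4.6, pandas 2.3.3, scipy 1.17.1 and matplotlib 3.10.9 were used, and steps were tested on simulated data. Alternatives were other UMI rules, each run alone, thinning, other scalings and minimums, transcripts that reach the 5′ exon, and leaving out each cell. A few genes are not reported here.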

Additional observations from a re-analysis of the deposited data

How the results depend on the processing

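No gene called in one direction was called in the other under any alternative. Leaving out 1 cell or changing the minimum could not turn a call, since each cell's shares stay the same. Most named genes were picked for the largest gaps between the types in these data, so kept directions are no independent check. Of 389 values of named genes under alternatives 388 kept their direction. The exception was Scrg1 (log2 ratio -0.26 in the long run alone), which had only 1 Oligo5 transcript in all. Of the 389 ratios 83 were more than 1.5 times smaller and 19 more than 1.5 times larger. Marcks went from a log2 ratio of 4.96 to 0.58 among transcripts that reached the 5′ exon, and Nfasc from 3.91 to 0.58. Bcas1, with 1 transcript in Oligo1-1 and none elsewhere, also gave 0.58 in that setting. Marcks and Nfasc thus had the value of a gene with 1 transcript, too few to show whether their difference holds there. Tmsb4x went from -3.23 to -0.88 with UMIs read 2 or more times. Gsn went from -1.61 to -0.37 in the short run and Mbp from 1.51 to 0.71 in the long run. Leaving out 1 cell moved 14 named genes by over 1.5 times: Cntn1, Rras2, Sepp1, Car2, Ermn and Epb4.1l3 without one or the other Oligo1 cell, and Marcks, Nfasc, Rap2a, Tspan2, Plekha1, Scrg1, Mal, Klk6 and Car2 without one or the other Oligo5 cell. Tspan2 moved most, from 2.76 to 4.16 without Oligo5-1 and 1.35 without Oligo5-2. The counts of genes higher in Oligo1 and in Oligo5, 170 and 75, depended on the depth and the minimum. They were 44 and 17 with UMIs read 2 or more times, 104 and 46 in the short run alone, 56 and 28 in the long run alone, 40 and 30 among transcripts that reached the 5′ exon, 366 and 200 with 5 or more transcripts, 77 and 28 with 20 or more, and 677 and 410 with no minimum. Thinned to the shallowest cell, 104 genes were higher in Oligo1. Except with lower minimums, fewer genes could be tested (114 to 354 against 492). Leaving out 1 cell at a time gave 98 to 202 genes higher in Oligo1 and 79 to 107 in Oligo5, with 98 and 79 without Oligo1-1. Without Oligo5-2, the cell with neuron markers, they were 181 and 107, and 157 of the 170 and 43 of the 75 genes were among them. The rest of the 170 and 75 fell under the minimum, since leaving out a cell cannot make a called gene overlap. Whether their calls depend on Oligo5-2 is thus not shown. A type of 1 cell overlaps less easily, and 76.4% of the genes tested were called against 49.8%.

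The log2 ratio of the immature list was 3.68 (3.19 in the long run alone, 3.31 to 3.97 with 1 cell left out) and that of the mature list -3.60 (-4.13 to -3.21 with 1 cell left out, -4.13 without Oligo1-1). The chaperone list (-0.025 in the short run alone) and the RNA-binding list (-0.11 in the long run alone) turned direction. Of 15 lists besides the 2 marker lists 9 changed sign in some alternative, among them the myelin proteins (0.25 to -0.12 in the long run), cytoskeleton (0.20 to -0.14 in the short run), lineage factors (0.49 to -0.029 in the long run), proteasome (0.43 to -0.030 with UMIs read 2 or more times) and neuron markers (-2.72 to 2.37 without Oligo5-2). The cause was not tested. Called junctions, 8 in all, numbered 0 with UMIs read 2 or more times, 4 with near UMIs merged and 4 with 10 or more transcripts per type, and 4 (without Oligo5-1) to 27 (without Oligo1-2) with 1 cell left out, where called exons numbered 0 to 6. No paired analysis was possible because the results come from no test and the cell numbers name the cells without pairing them.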

Other observations

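The 3′ ends of transcripts were grouped into sites within 20 bp, a step chosen after seeing the data, for 40 genes with 10 or more transcripts per type and 3 or more in each cell. The 9 sites that lay apart between the types were in Atp6v1a, Hsbp1, Itm2b, Magt1, Rtn4 and Sypl. In Rtn4, the neurite growth inhibitor Nogo, 2 of 10 and 2 of 9 transcripts of the Oligo1 cells and 9 of 14 and 2 of 5 of the Oligo5 cells ended at chr11:29707253 (GRCm38), inside a coding exon and 34858 bp from the nearest annotated transcript end, or 21.1% (6.05% to 45.6%) against 57.9% (33.5% to 79.7%). The other Rtn4 transcripts ended at a site 2 bp from an annotated end. In Itm2b, 3 of 18 and 1 of 4 against 5 of 6 and 4 of 11 transcripts ended at chr14:73362234, 8 bp from an annotated end. In Sypl, 12 of 12 and 8 of 8 transcripts of the Oligo1 cells ended at chr12:32976908, against 2 of 4 and 5 of 8 of the Oligo5 cells. The intervals of the types overlapped in each of these 3 genes. No explanation for these end sites was tested.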
